A study of Mus musculus with 8 samples.

Results

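The genes of the 4 surfactant proteins, Sftpa1, Sftpb, Sftpc and Sftpd, were examined in whole lung lobes of E14.5 mouse embryos. They were taken by symbol, as all array spots annotated to these names, and they are 4 of the 24583 genes on the array, covered by 5 of 43941 named spots. Sftpb had 2 spots and the other genes 1 each. For Sftpb the brighter spot was used, and the dimmer one served as a check. According to the label, the lungs labelled experimental came from Rosa26 rtTA/rtTA; Tg(tet(o)sFgfr2b)/+ embryos (4 arrays). In such embryos doxycycline induces a soluble, secreted form of Fgfr2b that captures the ligands of this receptor. Those labelled control came, again by label, from Rosa26 rtTA/rtTA; +/+ littermates, which carry the same transactivator but no soluble receptor (4 arrays). Whether the labels fit the arrays is taken up below with Etv5. Mothers of both groups were given a single injection of doxycycline (0.0015 mg per g), and lobes were collected 9 h later. The transactivator is expressed from the ubiquitous Rosa26 locus, so the soluble receptor is not limited to any cell type. The array titles number the samples of each group from 1 to 4, and what a number stands for is not given in the sources used here.

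Pulmonary surfactant is a film of phospholipid and protein that lowers surface tension in the air spaces, and it is made by alveolar type 2 (AT2) cells, which store it in lamellar bodies. SP-B and SP-C, encoded by Sftpb and Sftpc, are small hydrophobic proteins that are cut out of larger precursors and spread the lipid film. SP-A and SP-D, encoded by Sftpa1 and Sftpd, are collectins, oligomeric lectins with collagen-like stalks that bind sugars on microbes and act in innate defence. In the mouse lung Sftpc is transcribed early, in the distal epithelial tips, whereas the other surfactant genes become abundant later in gestation. Nkx2-1, a homeodomain factor of the lung epithelium, is a known activator of surfactant genes.

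RefSeq promoter sequences were at hand for 2 of the 4 genes, Sftpa1 and Sftpb, and they are shown because these genes moved together across the arrays and both are known targets of Nkx2-1. Each window runs from 250 bases before to 50 bases after the annotated start site on the plus strand of GRCm38.p6, chr14:41131538-41131837 for Sftpa1 and chr6:72304360-72304659 for Sftpb. Capitals mark the letters CTCAAG, used here as the core letters bound by Nkx2-1, and the TATA box letters TATAA.
Sftpa1: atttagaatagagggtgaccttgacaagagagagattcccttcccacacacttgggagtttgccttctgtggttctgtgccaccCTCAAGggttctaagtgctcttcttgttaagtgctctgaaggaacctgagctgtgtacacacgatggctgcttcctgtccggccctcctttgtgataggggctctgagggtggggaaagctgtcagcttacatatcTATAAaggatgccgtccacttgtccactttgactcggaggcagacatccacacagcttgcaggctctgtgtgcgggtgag
Sftpb: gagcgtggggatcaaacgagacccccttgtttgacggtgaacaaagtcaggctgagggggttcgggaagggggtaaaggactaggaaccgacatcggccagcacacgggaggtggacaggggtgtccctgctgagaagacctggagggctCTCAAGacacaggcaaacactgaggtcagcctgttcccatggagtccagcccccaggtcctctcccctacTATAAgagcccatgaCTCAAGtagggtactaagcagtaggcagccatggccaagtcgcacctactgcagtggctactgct
Searched on both strands, CTCAAG was found once in the Sftpa1 window, starting at −166, and at 2 places in the Sftpb window, starting at −100 and −15. These letters stand in 15.9% of all 32851 promoter windows of that length. TATAA began at −30 in both windows and stands in 24.9% of all windows. The ETS core GGAAG was found at 2 places in Sftpa1 and 1 in Sftpb (71.4% of all windows), TTNNGNAA of C/EBP at 1 place in Sftpb (40.7%), where it overlaps the GGAAG match, and TGTTTNC of FOXA at 1 place in Sftpb (20.5%). The motifs were chosen with these sequences in view, and a match describes letters, not a bound site.

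The values are normalized log2 signals of one-colour arrays. The arrays share a single distribution after quantile normalization, with a median of 4.43 and a highest value of 16, and pairs of arrays correlated at 0.986 to 0.992 across genes. The number of arrays limits the precision throughout. Nothing in the sources shows which arrays shared a litter or day, so the spread behind each p-value may be partly technical. Defining lung genes were bright on every array, with Nkx2-1 at 10.46 to 11.38 in the arrays labelled experimental and 10.39 to 11.35 in those labelled control, and Tbx4, a transcription factor of lung mesenchyme, at 12.15 to 12.34 and 12.07 to 12.33 in the same order. Etv5, an Ets factor that Fgf10 induces in the distal tips, did not separate the labels. It had 10.42, 10.43, 13.11 and 13.26 in experimental 1 to 4, against 10.09, 10.57, 13.18 and 13.26 in control 1 to 4. The samples are therefore called arrays labelled experimental or labelled control, and every signed difference rests on these labels. The paper reports lower Etv5, Etv4 and Sox9 in the experimental lungs of this array experiment. Between the labels Etv5 differed by only 0.03 (experimental minus control). In the numbers 1 and 2 of both labels Etv4 had 6.92 to 7.97, against 9.34 to 9.39 in the numbers 3 and 4. Sox9 had 6.20 to 6.72, against 7.87 to 8.79. The lowering that the paper reports thus lies along the title numbers and not along the labels. Its fold changes for Etv5, Etv4 and Sox9 also have the size of the step between the numbers 1 and 2 and the numbers 3 and 4. The titles may not name the right embryos. Differences between the labelled groups therefore cannot be read as the effect of the soluble receptor. The female transcript Xist was low in the arrays numbered 1 and 3 (2.98 and 3.63 in experimental, 3.48 and 3.39 in control) and high in those numbered 2 and 4 (8.21 and 7.45 in experimental, 7.87 and 7.55 in control), so it did not follow Etv5.

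**Figure D1:**
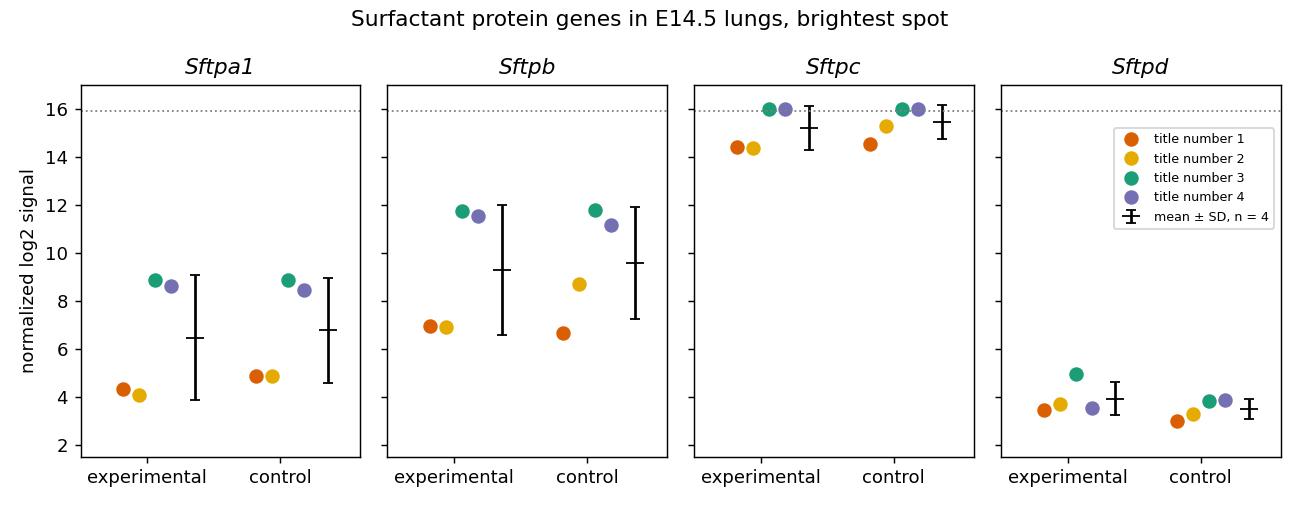
Normalized log2 signal of Sftpa1, Sftpb (brighter spot), Sftpc and Sftpd on each of the 8 arrays, coloured by title number, with the mean and SD of each labelled group (n = 4) beside the points. The dotted line lies 0.1 below the highest value of the table. Sftpa1, Sftpb and Sftpc sit higher in the numbers 3 and 4 of each label, Sftpc there above the dotted line, and Sftpd stays between 2.97 and 4.93.

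Sftpc had 14.43, 14.37, 15.98 and 15.99 in the arrays labelled experimental 1 to 4, against 14.54, 15.30, 15.99 and 15.99 in those labelled control 1 to 4. The arrays numbered 3 and 4 lay at the ceiling of the scale in both groups, and the labelled groups overlapped. On those 4 arrays the Sftpc spot ranked 33rd to 73rd from the brightest among 62974 spots, within the 229 spots of each array that lie less than 0.1 below the highest value. On the 4 arrays numbered 1 and 2 it ranked 1214th to 2799th. A signal at the ceiling gives only a lower bound, so differences of Sftpc that involve the arrays numbered 3 and 4 can be larger than they appear, and the near-zero differences within these numbers (−0.01 and 0.00) cannot show a difference in Sftpc transcripts.

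Sftpb, whose product is required for breathing at birth, had 6.94, 6.91, 11.75 and 11.53 in experimental 1 to 4, against 6.66, 8.72, 11.77 and 11.15 in control 1 to 4. It was far from the ceiling on every array, with a range of over 5 log2 units. The low and the high values occurred in both labelled groups, and control 2 lay between the low arrays and the high ones.

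The dimmer Sftpb spot, which answers to the same transcript accession, gave 4.07, 2.47, 7.80 and 7.57 in experimental 1 to 4, against 2.83, 4.81, 7.76 and 7.29 in control 1 to 4. It placed the arrays in nearly the same way, with the numbers 3 and 4 high and control 2 the highest of the numbers 1 and 2. The brighter spot exceeded the dimmer one by 2.88 to 4.44 log2 units, and low values of the dimmer spot approached the lowest value of the table, 2.00.

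**Figure D2:**
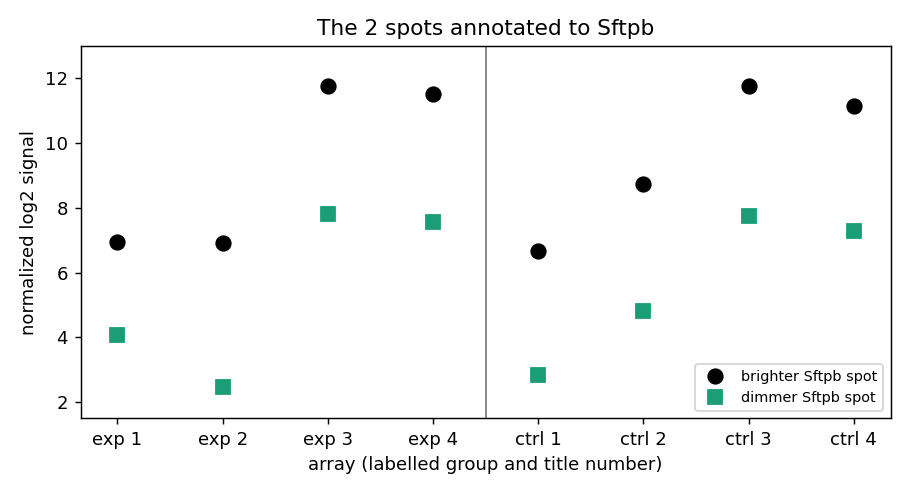
Normalized log2 signal of the 2 spots annotated to Sftpb on each array, labelled experimental on the left and labelled control on the right, with title numbers 1 to 4. Both spots are highest in the arrays numbered 3 and 4, and control 2 is higher than the other arrays numbered 1 and 2 in both.

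The collectin Sftpa1 had 4.31, 4.09, 8.86 and 8.61 in experimental 1 to 4, against 4.85, 4.88, 8.88 and 8.45 in control 1 to 4. Its values fell into a low set and a high set with nothing in between, and each labelled group held 2 arrays of each. In the low arrays the spot lay at the 46.1 to 54.3 percentile of all spots, near the middle of the array, and in the high arrays at the 77.6 to 79.9 percentile. No call of presence or absence was made for any spot, since the values used carry no background measure.

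Sftpd, the other collectin, had 3.45, 3.71, 4.93 and 3.54 in experimental 1 to 4, against 2.97, 3.29, 3.83 and 3.85 in control 1 to 4. Of the 8 values, 7 lay below the array median of 4.43, and experimental 3 was the only array above it. The Sftpd spot lay at the 23.3 to 54.8 percentile of all spots, and its labelled groups overlapped.

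Between the labelled groups, no surfactant gene differed beyond the spread between arrays. The paper lists Sftpa1 and Sftpb among the genes lowered in its experimental lungs and reports lower Sftpc by qPCR. That lowering does not appear along the labels as titled. Sftpa1, Sftpb and Sftpc were instead all lower in the numbers 1 and 2 of both labels, as Etv5 was. For Sftpa1, Sftpb and Sftpc the spread within a label holds the step between the title numbers 1 and 2 and the numbers 3 and 4. The comparison by label therefore does not show that these genes were unchanged by the soluble receptor. Sftpa1 averaged 6.47 ± 2.62 in arrays labelled experimental and 6.76 ± 2.20 in those labelled control (SD, n = 4 each), a difference of −0.29 (95% confidence interval −3.61 to 3.02). Sftpb averaged 9.28 ± 2.72 in experimental and 9.57 ± 2.35 in control, a difference of −0.29 (−3.77 to 3.19). For Sftpc the means were 15.20 ± 0.92 in experimental and 15.46 ± 0.69 in control, with a difference of −0.26 (−1.39 to 0.86), with 2 arrays of each label at the ceiling. Sftpd had the opposite sign, with 3.91 ± 0.69 in experimental and 3.48 ± 0.43 in control, a difference of 0.42 (−0.39 to 1.23). The adjusted p of limma was 1 for each gene, and 0 of the 4 passed, where 0 of all 24583 genes (0%) passed. For all genes limma gave 876 at an unadjusted p under 0.05, and an equal-variance test without moderation gave 788, with 0 after adjustment. A two-sided exact permutation test of each gene over the 70 assignments gave p = 0.6 for Sftpa1, 0.943 for Sftpb, 0.571 for Sftpc and 0.371 for Sftpd, where the smallest possible p is 0.0286. In 0 of the 4 genes were the labelled groups without overlap, against 1.9% of all genes.

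In the unpaired fit the intervals of Sftpa1 and Sftpb reach over 3 log2 units either way, so a p near 1 does not show that the labelled groups were alike. With the title number as a block they were −0.78 to 0.20 for Sftpa1 and −1.33 to 0.75 for Sftpb, and neither gene passed. Each title number holds 1 array of each label, both low or both high for these genes. The block therefore removes the step between the title numbers and cannot show a change that lies along it. Leaving out a single array moved the difference of Sftpa1 between −1.09 and 0.50, that of Sftpb between −1.26 and 0.50 and that of Sftpc between −0.57 and 0.01, with positive values for Sftpa1 and Sftpb without experimental 1, experimental 2, control 3 or control 4 and for Sftpc without experimental 2. Such an omission also leaves the labels with unequal numbers of low and high arrays. Leaving out both arrays of a title number takes 1 array from each label, and the difference was then −0.45 to −0.13 for Sftpa1 and −0.35 to −0.04 for Sftpc, while that of Sftpb was −0.51 to −0.38 except without the number 2, where it was 0.22. The Sftpd difference rested mostly on experimental 3 and was 0.08 without it.

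**Figure D3:**
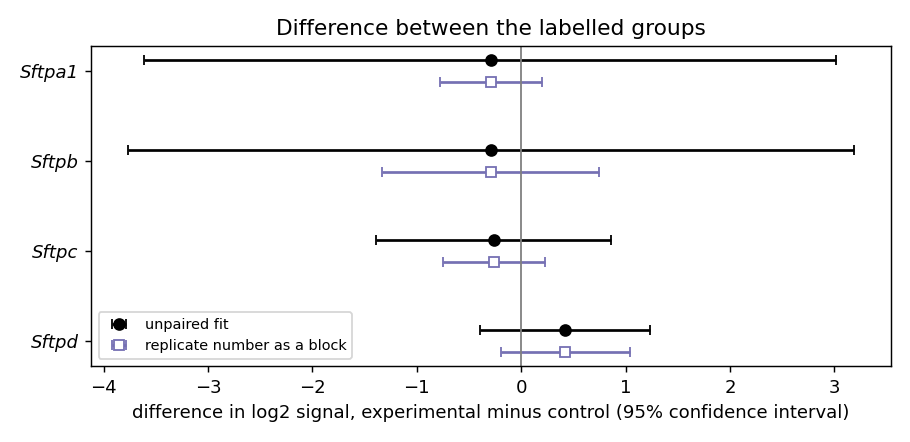
Difference in log2 signal between the arrays labelled experimental and those labelled control for each surfactant gene, with the 95% confidence interval, from the unpaired fit (filled circles) and from the fit that adds the title number as a block (open squares). All 8 intervals include 0.

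Within each title number the difference of the array labelled experimental from the array labelled control was −0.53, −0.79, −0.02 and 0.16 for Sftpa1 in the numbers 1 to 4. For Sftpb it was 0.29, −1.81, −0.02 and 0.38, and for the dimmer Sftpb spot 1.24, −2.34, 0.04 and 0.28. For Sftpc it was −0.11, −0.93, −0.01 and 0.00, and for Sftpd 0.48, 0.42, 1.10 and −0.31. The departures of over 0.5 log2 units thus lay in the numbers 1 and 2 for Sftpa1 and the dimmer Sftpb spot. They lay in the number 2 alone for the brighter Sftpb spot and Sftpc, and in the number 3 for Sftpd. The number 2 held the largest negative difference of Sftpa1, Sftpb and Sftpc, through values of control 2 that were higher than those of experimental 2.

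The arrays numbered 3 and 4 were set beside those numbered 1 and 2, across both labelled groups. This division was noticed in values of these same arrays, so it is described and not tested. The lowest Sftpa1 value of the 4 arrays numbered 3 and 4 (8.45) exceeded the highest of the 4 arrays numbered 1 and 2 (4.88) by at least 3.57 log2 units, or at least 11.9-fold, a minimum because the dim low values may include background. For Sftpb this gap was 2.43 (11.15 and 8.72), or 5.38-fold, and for its dimmer spot, whose low values are also dim, at least 2.48 (7.29 and 4.81), or at least 5.58-fold. For Sftpc the gap was at least 0.68 (15.98 and 15.30), or at least 1.6-fold, since the upper values are at the ceiling. Sftpd overlapped, with 3.54 to 4.93 in the numbers 3 and 4 and 2.97 to 3.71 in the numbers 1 and 2. Thus 3 of the 4 genes lay entirely higher in the numbers 3 and 4, as 5.39% of all genes did, while 0 of the 4 lay entirely lower, as 5.17% of all genes did.

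The title number as a whole, as a factor of 4 levels beside the labelled group, was entered in an F-test in limma. Since the pattern by number was already known from these arrays, the F-test describes it again and is no independent support. The adjusted p was 0.0563 for Sftpa1, 0.262 for Sftpb, 0.383 for Sftpc and 0.54 for Sftpd, so 0 of the 4 genes passed, where 7 of all genes (0.0285%) did. The adjusted p of Sftpa1 was 0.0132 without the group term, 0.0324 with all spots of a gene averaged and 0.0049 with dim genes left out. Among the 7 genes that passed were Etv5 and the sex-linked Xist, Kdm5d and Eif2s3y. Any single array left out took this count to 0, and Sftpa1 then had an adjusted p of 0.275 to 0.415.

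Control 2 differed between the surfactant genes. It was the highest of the 4 arrays numbered 1 and 2 for Sftpc (15.30, against 14.37 to 14.54 in the other 3 of them), for Sftpb (8.72, against 6.66 to 6.94) and for the dimmer Sftpb spot (4.81, against 2.47 to 4.07). For Sftpa1 it had 4.88, next to 4.85 in control 1. Other genes were divided. Control 2 was also the highest of the arrays numbered 1 and 2 for Etv5 (10.57, against 10.09 to 10.43), Ctsh (11.51, against 10.98 to 11.22) and Cxcl15 (3.49, against 2.41 to 2.80). Abca3 and Id2 were at their lowest in control 2 (9.04 and 9.59). Among the surfactant genes the intermediate position of control 2 was thus seen in Sftpb and Sftpc and not in Sftpa1, and it was not particular to surfactant genes.

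In whole lobes, fewer cells of a type and less RNA per cell cannot be told apart, so epithelial genes were set beside the surfactant genes. The mean of 20 pan-epithelial genes was 9.17, 9.00, 9.24 and 9.19 in experimental 1 to 4, against 8.94, 9.11, 9.30 and 9.20 in control 1 to 4. Of the 20, 5 lay entirely higher in the numbers 3 and 4, against 5.39% of all genes. Epcam, a general epithelial adhesion molecule, had 10.10, 10.01, 10.16 and 10.47 in experimental 1 to 4, against 9.87, 9.93, 10.28 and 10.30 in control 1 to 4. The epithelial mean thus ranged over less than 0.4 log2 units. Measured relative to it, the gap between the numbers 3 and 4 and the numbers 1 and 2 was at least 3.35 for Sftpa1, 2.34 for Sftpb and at least 0.50 for Sftpc, and Sftpd overlapped. The differences between the labelled groups on that scale were −0.31 for Sftpa1, −0.30 for Sftpb, −0.27 for Sftpc and 0.41 for Sftpd.

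Other cell types were followed by lists of marker genes. For comparison, 5.39% of all genes lay entirely higher in the numbers 3 and 4 and 5.17% entirely lower. All 10 genes of the distal tip list, which includes Etv5, lay entirely higher in the numbers 3 and 4, where the list averaged 10.09 to 10.22, against 8.63 to 8.79 in the numbers 1 and 2. Of the airway list, 0 of 8 measured genes lay entirely higher and 0 lower. The same held for endothelium (0 of 6), cardiac muscle (0 of 6), mesothelium (0 of 5) and erythroid cells (0 of 5). Of 8 AT1 markers, 2 lay entirely higher, Pdpn (11.34 to 11.58 in the numbers 3 and 4, against 9.80 to 10.07 in the numbers 1 and 2) and Akap5 (10.67 to 10.87, against 9.77 to 10.34), and 0 lower. Of the mesenchymal markers 3 of 8 (Fgf10, Tcf21 and Col1a1) lay entirely lower in the numbers 3 and 4, and of the leukocyte markers 2 of 6 (Csf1r and Itgam). For Fgf10 the paper reports a rise in its experimental lungs, which it predicts from loss of Shh signaling. Markers of these other tissues ranged from bright to dim, with the cardiac Myh6 at 10.96 to 11.74, the endothelial Pecam1 at 7.46 to 7.75 and the erythroid Epb42 at 2.44 to 4.48 over the 8 arrays. By label, the 6 cardiac genes had a median difference of −0.48, 5 of them lower in sign in the arrays labelled experimental. Myh6, the alpha myosin heavy chain of heart muscle, had 11.28, 11.16, 10.96 and 11.34 in experimental 1 to 4, against 11.72, 11.72, 11.74 and 11.64 in control 1 to 4. Its labelled groups did not overlap (difference −0.52 ± 0.11 SE, adjusted p = 1 in limma), which held for 1.9% of all genes. Myl7, Myl4 and Tnnt2 did not overlap either, while Actn2 and Nppa did. All 8 measured airway genes (median −0.25) and all 5 mesothelial genes (median −0.14) were also lower in sign in the arrays labelled experimental. Of all 24583 genes, 11998 were lower in sign, and 0 of these lists' genes passed. The airway mean was highest in control 1 (8.63, with control 3 next at 7.89), where Krt5 had 8.66, against 2.73 to 4.04 on the other arrays. The part of these cell types in the surfactant values was not tested.

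The surfactant precursors need proteases, and 2 of the 3 listed followed the pattern, against 5.39% of all genes. Napsa, the aspartic protease napsin A that cuts the SP-B and SP-C precursors, had 4.99, 5.68, 7.70 and 7.40 in experimental 1 to 4, against 5.81, 5.86, 7.30 and 7.05 in control 1 to 4. Ctsh, the protease cathepsin H, which trims the same precursors, had 11.22, 10.98, 12.95 and 12.91 in experimental 1 to 4, against 11.20, 11.51, 12.74 and 12.78 in control 1 to 4. Both lay entirely higher in the numbers 3 and 4 and overlapped between the labelled groups, which differed by −0.06 ± 0.65 (SE) for Napsa and −0.04 ± 0.57 for Ctsh. Pgc, progastricsin, an AT2 protease, was dim throughout, at 2.81 to 3.54 in experimental and 2.29 to 4.59 in control.

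Of 6 lamellar body genes, 3 lay entirely higher in the numbers 3 and 4 (5.39% of all genes) and 1, Hps1, lower (5.17%). Between the labelled groups 0 passed (median difference 0.03, against 0.00 for all genes). Abca3, the transporter that loads phospholipid into lamellar bodies, had 9.65, 9.23, 11.11 and 11.13 in experimental 1 to 4, against 9.32, 9.04, 11.19 and 10.92 in control 1 to 4. Its gap was 1.27 log2 units. Lamp3, a lamellar body membrane protein, was high on every array, with a gap of 0.22 between 11.78 to 11.89 in the numbers 3 and 4 and 11.31 to 11.55 in the numbers 1 and 2. Atp8a1, a lipid flippase, had a gap of 0.36. Slc34a2, the AT2 phosphate transporter, was dim and overlapped, at 3.45 to 4.65 in experimental and 3.09 to 4.60 in control.

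**Figure D4:**
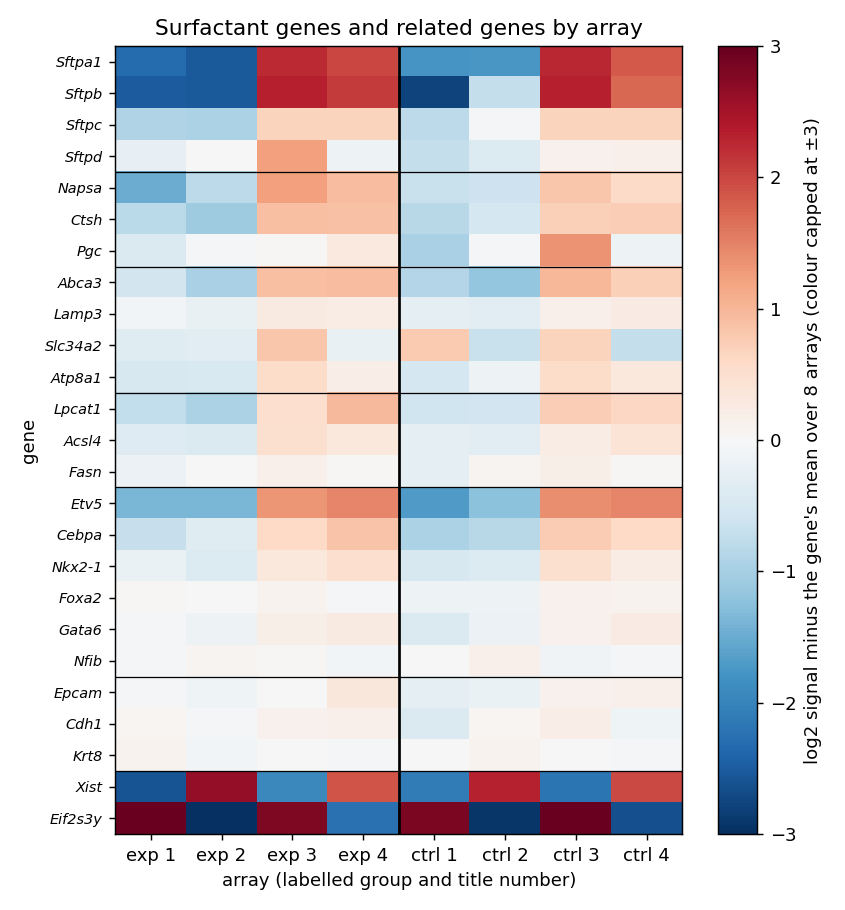
Log2 signal of the 4 surfactant genes and of 21 related genes on each array, as the deviation from the gene's mean over the 8 arrays (colour, capped at ±3), with the arrays labelled experimental on the left. Black lines separate surfactant proteins, precursor proteases, lamellar body genes, lipid synthesis genes, transcription factors, epithelial genes and sex-linked genes. Sftpa1, Sftpb, Etv5, Abca3 and Ctsh are high in the numbers 3 and 4 of both groups, whereas Xist and Eif2s3y alternate between odd and even numbers.

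The lipid part of surfactant was covered by 12 genes. In the numbers 3 and 4, 5 of them lay entirely higher (5.39% of all genes) and 2, Pcyt1a and Gpam, entirely lower (5.17%). The acyltransferase Lpcat1, which remodels phosphatidylcholine to its saturated surfactant form, had the widest gap of these 12, 1.07, with 8.36 to 8.82 in the numbers 3 and 4 and 6.90 to 7.28 in the numbers 1 and 2. The acyl-CoA synthetase Acsl4 had a gap of 0.50 and the choline kinase Chka one of 0.30. Fasn, fatty acid synthase, overlapped at 13.47 to 13.60 and 13.15 to 13.52 in the same order. Between the labelled groups 0 of the 12 passed, with 6 higher and 6 lower in sign and a median of 0.00. The smallest p belonged to the stearoyl-CoA desaturase Scd1, with 4.82, 5.0, 5.15 and 5.17 in experimental 1 to 4, against 5.47, 5.49, 5.77 and 5.55 in control 1 to 4. The labelled groups did not overlap for Scd1, at a low signal, which held for 1.9% of all genes. The difference of −0.54 ± 0.12 (SE) did not pass (limma, adjusted p = 1).

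Among 14 transcription factors known to act on surfactant genes, 4 lay entirely higher in the numbers 3 and 4, 2 entirely lower (Cebpd and Wwtr1) and 8 overlapped. Over all genes the shares were 5.39% entirely higher and 5.17% entirely lower. Etv5 had a gap of 2.55 log2 units and Cebpa, a C/EBP factor of AT2 differentiation, one of 0.95. Nkx2-1 had 10.68, 10.46, 11.20 and 11.38 in experimental 1 to 4, against 10.39, 10.46, 11.35 and 11.09 in control 1 to 4, with a gap of 0.42, and Gata6 had one of 0.20. The forkhead factors Foxa1 and Foxa2 overlapped, as did Nfib and Klf5. Between the labelled groups 0 of the 14 passed (median 0.03), and the smallest p belonged to Nfatc3 (0.10 ± 0.09), Foxa1 (0.13 ± 0.16), Nfia (−0.08 ± 0.11) and Gata6 (0.11 ± 0.17, SE).

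Genes that set the surfactant pool after secretion overlapped between the title numbers. Of Adgrf5, Csf2 and the receptor chains Csf2ra, Csf2rb and Csf2rb2, 0 of 5 lay entirely higher or lower, against 5.39% and 5.17% of all genes. All 5 were higher in sign in the arrays labelled experimental, as were 12585 of all 24583 genes. Their median was 0.19, and 0 passed. Csf2, the growth factor GM-CSF, had the smallest p, with 3.34, 3.49, 3.67 and 3.39 in experimental 1 to 4, against 2.73, 2.77, 3.46 and 2.58 in control 1 to 4. Its difference was 0.59 ± 0.20 (SE, adjusted p = 1 in limma) at a signal below the array median, and its labelled groups overlapped.

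Relatives of the surfactant proteins by protein family were read in the same way, beside 5.39% of all genes entirely higher and 5.17% entirely lower. Of 5 other collectin genes, 0 lay entirely higher in the numbers 3 and 4, and Colec10 lay entirely lower (6.70 to 7.11, against 7.58 to 8.23 in the numbers 1 and 2). Mbl1 and Mbl2, the mannose-binding lectins, were near the floor, at 2.48 to 3.77 in experimental and 2.19 to 2.88 in control. Of 3 genes for saposins and a related lipid-binding cofactor, 0 lay entirely higher or lower. Psap and Psapl1 encode proteins with the saposin fold that SP-B shares, and Gm2a encodes a cofactor of another fold. Of 7 genes with the BRICHOS domain that pro-SP-C also carries, Cnmd lay entirely higher in the numbers 3 and 4, while Itm2a and Tnmd lay entirely lower. None of these 15 genes passed between the labelled groups.

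Of 12 further AT2 genes, 5 lay entirely higher in the numbers 3 and 4 and 0 entirely lower, against 5.39% and 5.17% of all genes. The lung chemokine Cxcl15 had 2.80, 2.41, 6.37 and 6.74 in experimental 1 to 4, against 2.60, 3.49, 6.23 and 6.42 in control 1 to 4, a gap of at least 2.74, since its low values are near the lowest of the table. Dram1 had a gap of 2.55, Lgi3 of 1.32, Slc39a8 of 1.21 and the secreted surfactant-associated Sfta2 of 0.27. Lyz2, Muc1, Cd74, Cldn18, Chil1, Hc and Il33 overlapped. Between the labelled groups 0 of the 12 passed, with a median of 0.06.

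The genes most like each surfactant gene were sought by Pearson r over the 8 arrays, among 12288 genes with a mean signal above the gene median of 5.79. The arrays fall into the high and low sets described above, so r mainly reflects that step and is given as a description. Sftpa1 was most like the AT1 marker Pdpn (0.998), followed by Dram1, Ctsh, Dtl and Kifc3 (0.991 to 0.993). Sftpb was most like the transcription factor Sp5 and the proprotein convertase Pcsk6 (both 0.995), followed by Gar1, Gm6756 and Mthfd1 (0.990 to 0.992). Pcsk6 also shared the intermediate level of control 2, with 9.60, against 8.51 to 8.70 in the other arrays numbered 1 and 2 (values noticed after they were seen). Sftpc was most like Gm8096 (0.994), Nop56, Psat1, Tnfrsf12a and Pcsk6 (0.986 to 0.990), with its own values capped at the ceiling. Sftpd was less like any gene, with Parva at 0.964 and Mrpl37, Slc6a8, Scap and Zcchc2 at 0.911 to 0.934. Among the surfactant genes themselves r was 0.99 for Sftpb with Sftpc, 0.97 for Sftpa1 with Sftpb and 0.95 for Sftpa1 with Sftpc, and 0.55 to 0.63 for Sftpd with the others.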

How the data were processed

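RNA from each left lobe was amplified and Cy3-labelled for a one-colour Agilent mouse array. The authors extracted spot signals with Mapix, corrected background by normexp with an offset of 1 and quantile-normalized the logged values. The deposited values are these log2 signals of 62976 spots (base read from the values), with replicate spots not averaged. The genome build is not given in the sources used here. A total of 2 spots lacking a value on an array were left out.

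Spots were named through the platform annotation, with symbols updated by transcript accession (GRCm38.p6 gene table, 33704 of 43941 named spots matched). Each gene was represented by its brightest spot. Differences (experimental minus control) were fitted without pairing over all 24583 genes (limma 3.58.1, lmFit and eBayes, under R 4.3.3), with two-sided p-values, Benjamini-Hochberg adjustment and a threshold of 0.05. The fits were tested on simulated data. Alternatives were the replicate block, the mean of all spots, single spots, a filter on dim genes, an intensity trend, an equal-variance test without moderation, centring on epithelial genes and omission of arrays. The members and gene lists were chosen with earlier results of these data known. Named genes are the surfactant genes, Etv5, Nkx2-1, Epcam and Abca3, up to 4 genes of smallest p per list, the 5 most similar genes per member, and genes of the lists described for their pattern, chosen after their values were seen.

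As a check of pairing, arrays that share a title number deviated together from their group means, with correlations of 0.109, 0.146, 0.124 and 0.117 for the numbers 1 to 4, all above the limit of 0.1, and 8 of 8 arrays correlated best with their own number. This pairing comes from the data and the title numbers, not from a stated litter or day. Each title number also holds its own combination of Etv5 level and Xist level, which can make its arrays alike. The check therefore cannot show a shared litter or day.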

Additional observations from a re-analysis of the deposited data

How the results depend on the processing

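With the replicate number as a block, the differences were −0.29 for Sftpa1 (interval −0.78 to 0.20), −0.29 for Sftpb (−1.33 to 0.75), −0.26 for Sftpc (−0.75 to 0.23) and 0.42 for Sftpd (−0.19 to 1.04), and this changed no call. The block removes the step between the title numbers, so it cannot show a change that lies along them. The count of genes passing between the labelled groups stayed at 0 in every alternative except an unadjusted threshold (876). Without both arrays numbered 2 the Sftpb difference turned to 0.22, and the cause was not tested. Without 1 array the difference ranged from −1.09 to 0.50 for Sftpa1, from −1.26 to 0.50 for Sftpb and from −0.57 to 0.01 for Sftpc. The dimmer Sftpb spot, added after the data were seen, gave −0.20. Other alternatives, among them the intensity trend, single spots and centring on epithelial genes, kept the sign and missed the threshold for each of the 4 genes, where Sftpd was not measured under the filter on dim genes.

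The F-test of the title number called 39 genes without the group term, 11 with the mean of all spots and 84 above the median signal (7 as reported), and 0 to 0 without 1 array. Sftpa1 had an adjusted p of 0.0132 without the group term, 0.0324 with the mean of all spots and 0.0049 with the filter on dim genes, and Sftpb one of 0.033 with the filter on dim genes. Fewer genes are tested under that filter, and fewer residual degrees of freedom remain without an array. Sftpc at the ceiling and Sftpd at a dim signal limit what these arrays can show for both genes.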
